A study of Carassius auratus with 5 samples.

Results

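The clones described here are the 15 cDNA clones whose spot name holds SNAP-25, SNAP25, one of the spelled-out names of synaptosomal-associated protein 25, or the word synuclein, of 8099 cDNA clones on the array. They form 2 families, 9 SNAP-25 clones and 6 synuclein clones, and are described apart. The families were proposed because some of these clones were among the lowest ratios of this same comparison, so every ratio below is a description of 5 arrays, and no test on them is independent evidence.

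The arrays measured RNA of the telencephalon, the front of the forebrain, from sexually mature female goldfish (Carassius auratus). Each of the 5 arrays held RNA from 1 independent group of fish kept in water with fadrozole at 50 µg/L, labelled with Cy3, against RNA from a single common pool of fish kept in untreated water, labelled with Cy5. Fadrozole inhibits aromatase, the enzyme that turns androgens into estrogens and that radial glia of the fish forebrain make in large amounts. The number of fish in a group, their age and the length of the exposure are not given in the sources used here. The control pool counts as 1 control sample, so its own spread enters no error below, and since no array had the dyes exchanged, dye and treatment cannot be told apart. The 5 arrays are called replicates 1 to 5.

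SNAP-25 is a protein of the nerve terminal's plasma membrane. With syntaxin and synaptobrevin it forms the SNARE complex that pulls a synaptic vesicle onto the membrane so that it fuses and releases transmitter, and it is a target of botulinum toxins. Goldfish and zebrafish carry an a and a b form of the gene. Synucleins are small proteins that bind the membranes of synaptic vesicles. In humans alpha-synuclein is the main protein of Lewy bodies in Parkinson disease, beta-synuclein lies beside it in nerve terminals, and zebrafish have beta and gamma forms.

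A clone was spotted in duplicate on each array, and its value is the log2 ratio of fadrozole over control, averaged over its 2 spots, and values under 0 stand for less signal after exposure. A clone was tested where it stood above its local background in at least 1 channel on at least 3 arrays. All 9 SNAP-25 clones and 5 of the 6 synuclein clones met this, against 8078 of all 8099 clones, and synuclein clone 60n05 did not. The fadrozole channel by itself stood above background on 3 or more arrays in 6 SNAP-25 and 2 synuclein clones, against 3352 of all tested clones (41.5%). Called means an adjusted p under 0.05 in limma's moderated test over the 8078 clones. Clone names start with the number of the source plate from which the clone was printed.

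In scanner units, median spot intensities of 60.6 to 92.6 for control compare with 121 to 380 for fadrozole. Empty spots, of which each array had 776, had medians of 0 to 49.7 for control and as much as 98.2 to 311 for fadrozole. Precision is limited by having 5 arrays. In tissue RNA, fewer cells of a type and less RNA per cell cannot be told apart. The neuron markers were mostly stathmin clones, with synaptotagmin, alpha-internexin, neurogranin and GAP-43 clones. Of these, 17 of 21 clones stood above local background in the control channel on all arrays. So did 12 of 13 radial glia, 24 of 27 myelin protein, 12 of 12 hemoglobin chain and 2 of 3 clones matched as pituitary. That bar is low, since 77.5 to 90.1% of all spots passed it in this channel by array. The 95th percentile of the empty spots was exceeded in the control channel on all arrays by fewer clones. These were 4 neuron, 3 radial glia, 5 myelin, 2 hemoglobin and 0 pituitary clones, against 17.3% of all tested clones. The 3 pituitary clones were matched by words: growth hormone (02c08), a prolactin-releasing peptide receptor (22e11) and a gonadotropin-releasing hormone receptor (03m01). Only growth hormone is itself a pituitary hormone. The hemoglobin clones had a mean ratio of -0.26 ± 0.40 (SD, n = 5 arrays), with summed intensities of 793 to 3628 in control and 1628 to 6318 in fadrozole. The neuron marker clones, most of them stathmin, had a mean of -0.06 ± 0.08, with sums of 2048 to 6659 and 4472 to 15202. Of the 20 tested neuron marker clones, 16 had a mean below 0, against 51% of all tested clones. limma called 1 of the 20 lower, a stathmin family clone of plate 02 (02e17), against 1.61% of all tested clones. As matched by word, the blood list also held 6 other clones, 5 of them myoglobin, and the oligodendrocyte list 6 of other proteins, and both were narrowed from the names after the data were seen (all 18 clones of the first stood at -0.19 ± 0.26, all 33 of the second at 0.01 ± 0.08). The part of either in the ratios below was not tested.

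The tested SNAP-25 clones had a mean ratio of -0.21 ± 0.05 over the 5 arrays (SD, n = 5), and the tested synuclein clones one of -0.25 ± 0.09. By array, the SNAP-25 mean was -0.19, -0.25, -0.18, -0.28 and -0.17 in replicates 1 to 5. The synuclein mean was -0.15, -0.25, -0.36, -0.32 and -0.16. Both families lay below 0 on every array, while the mean of all tested clones ranged from -0.04 to 0.03 by array. The family means came largely from a few low clones, since the median clone stood at -0.12 in each family, against -0.003 among all tested clones.

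limma called 2 of the 9 SNAP-25 clones and 1 of the 5 tested synuclein clones, all lower, where it called 164 of the 8078 tested clones (2.03%), 130 of them lower (1.61%). Because the families were picked from this contrast, nothing is read from that comparison. All 3 called clones came from source plate 02, on which 94 of 384 clones (24.5%) were called lower and whose median ratio was -0.35 ± 0.15. None of the 7 SNAP-25 and 4 synuclein clones tested on other plates was called by limma, and neither were most clones there, with 70 of 7694 called (0.91%). Of these 70, 33 were lower calls on plate 04, whose median ratio was -0.20 ± 0.08 and which holds no clone of the families. At an unadjusted p under 0.05 the synuclein clone 27j15 joined the 3, among 651 lower clones in all (8.06%). The calls did not outlast the loss of single arrays: without replicate 1, 2 or 3 limma called 0 SNAP-25 clones, and without replicate 1, 2, 3 or 4 it called 0 synuclein clones. Without replicate 4 or without replicate 5 it called 1 SNAP-25 clone each time, and the count over all clones was 1, 0, 0, 174 and 99 with replicates 1 to 5 left out in turn. Below 0 on all 5 arrays were 3 SNAP-25 and 2 synuclein clones, against 618 of all tested clones (7.65%). The 3 called clones are among them, and the median of their plate, 02, lay between -0.53 and -0.15 by array.

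**Figure D1:**
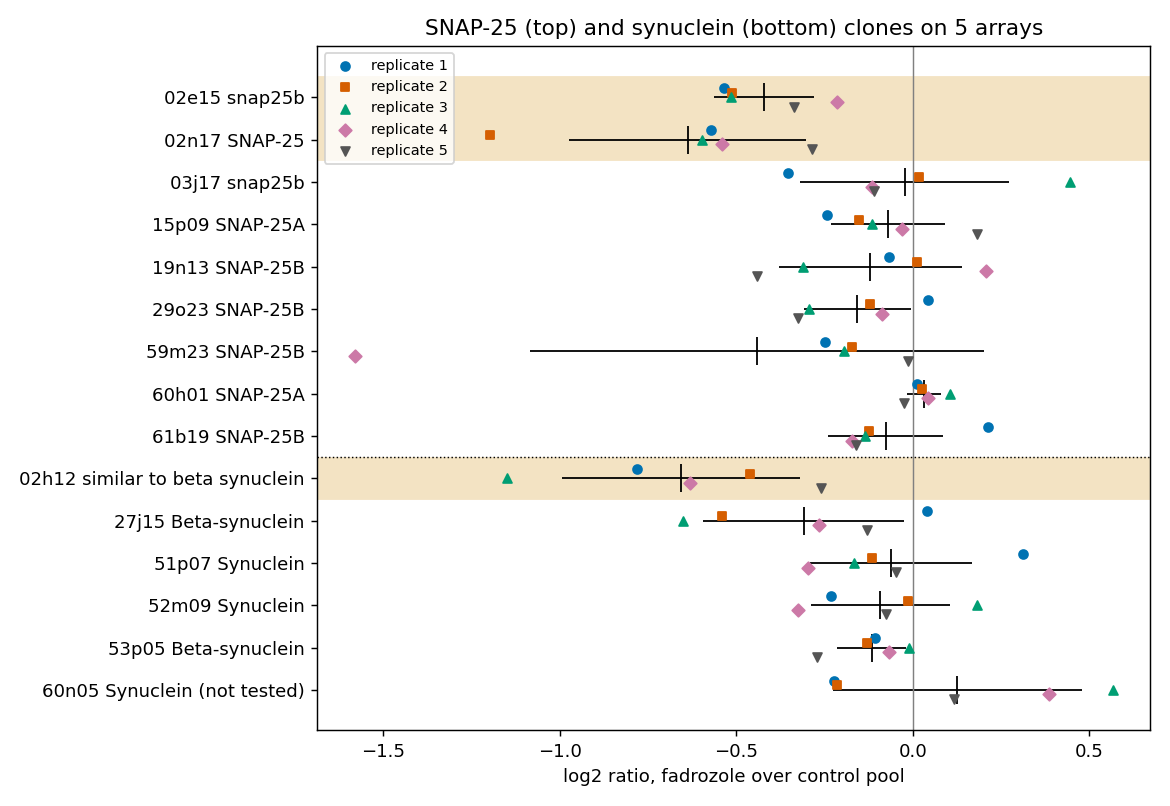
Log2 ratio of fadrozole over control (x axis) for the 9 SNAP-25 clones (above the dotted line) and the 6 synuclein clones (below it). Each symbol is 1 array, the vertical tick is the mean and the horizontal bar its SD over 5 arrays, and shaded clones come from plate 02. The 3 shaded clones have all their symbols below 0, and clone 59m23 has 1 symbol, replicate 4, far from its other 4.

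Of the SNAP-25 clones, 02n17, named only as SNAP-25 synapse protein with no a or b, had the lowest mean. Its ratios were -0.57, -1.20, -0.60, -0.54 and -0.28 in replicates 1 to 5, a mean of -0.64 ± 0.34 (SD, n = 5) or 1.56-fold lower, with an adjusted p of 0.0374 in limma. Replicate 2 was the lowest and replicate 5 the nearest to 0. Its control intensities of 464, 708, 399, 144 and 498 exceeded the 95th percentile of the empty spots on all 5 arrays, and its fadrozole intensities of 496, 498, 788, 329 and 278 did so on 4. The 2 spots of this clone had mean ratios of -0.73 ± 0.39 and -0.55 ± 0.36, both below 0 on all 5 arrays.

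The second called SNAP-25 clone, 02e15, carries the name snap25b. Its ratios were -0.53, -0.51, -0.51, -0.21 and -0.34, a mean of -0.42 ± 0.14 or 1.34-fold lower, with an adjusted p of 0.0374 in limma. The first 3 arrays nearly coincided and replicates 4 and 5 lay closer to 0. The closeness of the averages hides a wide gap between spots: in replicate 1 the left spot gave -1.10 and the right one 0.03. Its fadrozole channel exceeded the empty spots' 95th percentile on 1 array, and its control channel on 4.

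Clone 03j17 has the same name, snap25b, but comes from plate 03. Its ratios were -0.35, 0.02, 0.45, -0.11 and -0.11, a mean of -0.02 ± 0.30, and they fell on both sides of 0. Array by array, 02e15 was lower than 03j17 by 0.10 to 0.96, on 5 of 5 arrays, with a mean difference of -0.40 ± 0.35. The 2 spots of 03j17 parted by as much as 1.15, in replicate 3, where the right spot alone gave 1.02. In the control channel clone 03j17 was also the dimmer of the pair. That channel exceeded the same percentile of the empty spots on 2 arrays, against 4 for 02e15. Its fadrozole channel stood above local background on 2 arrays, against 4, but exceeded the empty spots' percentile on 2, against 1. In replicate 3 the fadrozole intensity of 03j17 was 637, against 469 for 02e15. In replicate 2 the right spot of 03j17 had a local fadrozole background of 463 with an SD of 3873 scanner units. The control background there, 256, exceeded the spot's own control intensity of 167. What sets the 2 clones apart was not tested.

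The brightest SNAP-25 clone, 29o23, is named SNAP-25B. Its control intensities were 445, 1083, 666, 274 and 444 and its fadrozole intensities 728, 1502, 1453, 650 and 250, above the 95th percentile of the empty spots in both channels on all 5 arrays. Among all tested clones, 17.3% reached this in the control channel and 15.4% in the fadrozole channel. Its ratios were 0.04, -0.12, -0.29, -0.09 and -0.33, a mean of -0.16 ± 0.15 with an adjusted p of 0.447 in limma, so the best measured clone of the family was not called. Its 2 spots had means of -0.17 and -0.14.

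Clone 59m23, another SNAP-25B clone, stood at -0.44 ± 0.64 with an adjusted p of 0.363 in limma, and replicate 4 carried that mean. Its ratios were -0.25, -0.17, -0.19, -1.58 and -0.01, and without replicate 4 the mean was -0.16. The control intensity was 367 in replicate 4 and 41.1 to 78.4 on the other arrays. The fadrozole intensity was also highest in replicate 4, at 467, against 106 to 301 on the others. Both spots had low ratios in replicate 4, at -1.57 and -1.59, but with control intensities of 138 at the left and 595 at the right. There the local fadrozole background of the left spot was 420 with an SD of 1610 scanner units, above the spot's intensity of 404. At the right spot that background was 110 with an SD of 240. The fadrozole channel was not above its local background on any array, so at most a bound applies, and only under the reported processing. There it came to 1.34-fold lower over the 5 arrays but to 1.10-fold without replicate 4. The mean ratio was -0.26 with no background correction and -0.02 with the background taken from empty spots. Both lie nearer 0 than the bound over 5 arrays, so it is no firm minimum.

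The remaining 2 SNAP-25B clones, 19n13 and 61b19, had means of -0.12 ± 0.26 and -0.08 ± 0.16, each with arrays on both sides of 0. Of the SNAP-25A clones, 15p09 had ratios of -0.24, -0.15, -0.12, -0.03 and 0.18, a mean of -0.07 ± 0.16. The other, 60h01, was the dimmest SNAP-25 clone and the highest in ratio, at 0.01, 0.03, 0.11, 0.04 and -0.02, a mean of 0.03 ± 0.05. Its control intensities of 56.6, 54.0, 0, 45.6 and 51.2 stayed under the empty spots' 95th percentile on every array. The dim synuclein clones 51p07, 52m09 and 60n05, which also stayed under it, had SDs of 0.23, 0.20 and 0.35, so a dim control channel did not always go with a small spread.

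By form, the 5 SNAP-25B clones on plates other than 02 had a mean of -0.16 ± 0.12 and the 2 SNAP-25A clones one of -0.02 ± 0.07. The difference of B minus A was -0.14 ± 0.17 and lay between -0.36 and 0.03, below 0 on 4 of 5 arrays. Its mean was smaller than its SD over arrays, and the difference was not tested. It shrank to -0.09 ± 0.14 without replicate 4 and to -0.07 ± 0.16 without clone 59m23. The A clones are also dim: 15p09 exceeded the empty spots' 95th percentile in the control channel on 1 array and 60h01 on 0.

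Of the synuclein clones, 02h12, named as a zf clone similar to beta synuclein, was the only one called. Its ratios were -0.78, -0.46, -1.15, -0.63 and -0.26, a mean of -0.66 ± 0.34 (SD, n = 5) or 1.58-fold lower, with an adjusted p of 0.0341 in limma. All arrays were below 0, replicate 3 lowest and replicate 5 nearest to 0. Its control intensities of 204, 442, 648, 161 and 215 exceeded the empty spots' 95th percentile on all 5 arrays and its fadrozole intensities of 295, 499, 863, 388 and 166 on 3. Its 2 spots had mean ratios of -0.75 ± 0.38 and -0.56 ± 0.40.

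Clone 27j15, named beta-synuclein, was the brightest synuclein clone, and it comes from plate 27. Its control intensities were 191, 664, 446, 138 and 311, over the empty spots' 95th percentile on all 5 arrays, and its fadrozole intensities 430, 712, 840, 414 and 207, over it on 4. Its ratios were 0.04, -0.54, -0.65, -0.27 and -0.13, a mean of -0.31 ± 0.29 or 1.24-fold lower, with an adjusted p of 0.218 in limma, so it did not pass the test. Replicates 2 and 3 were low and replicate 1 stood just above 0. The left spots had a mean of -0.48 and the right ones of -0.13, and in replicate 4 they differed by 1.24, the widest gap on 1 array among the 15 clones.

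The second beta-synuclein clone, 53p05, had ratios of -0.11, -0.13, -0.01, -0.07 and -0.27, a mean of -0.12 ± 0.10, all below 0 and all small. The clones named only synuclein, 51p07 and 52m09, stood at -0.06 ± 0.23 and -0.09 ± 0.20 with arrays on both sides of 0. These 3 clones exceeded the empty spots' 95th percentile in the control channel on 1, 0 and 0 arrays. The untested 60n05 ran from -0.22 to 0.57, with a control intensity of 0 in replicate 4. Its mean of 0.13 ± 0.35 was the only synuclein mean above 0. With 60n05 included the synuclein family mean was -0.19, against -0.25 for the tested clones. Outside plate 02 the 2 clones named for the beta form had a mean of -0.21 ± 0.13, and of -0.36 ± 0.15 with 02h12 included. The 2 tested clones without a letter had a mean of -0.08 ± 0.14, and of -0.02 ± 0.05 without replicate 4. On plates other than 02 the beta clones were lower than these on 4 of 5 arrays. The mean difference was -0.14 ± 0.19 over all 5 arrays, smaller than its SD over arrays, and was not tested. Replicate 4, at 0.14, was the only array above 0 and the only one left out for this comparison. Without replicate 4 the difference was -0.21 ± 0.12 (SD, n = 4 arrays), larger than its SD, so this reading depends on 1 array. In replicate 4 the right spot of 52m09 had a local fadrozole background of 317 with an SD of 1439 scanner units.

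**Figure D2:**
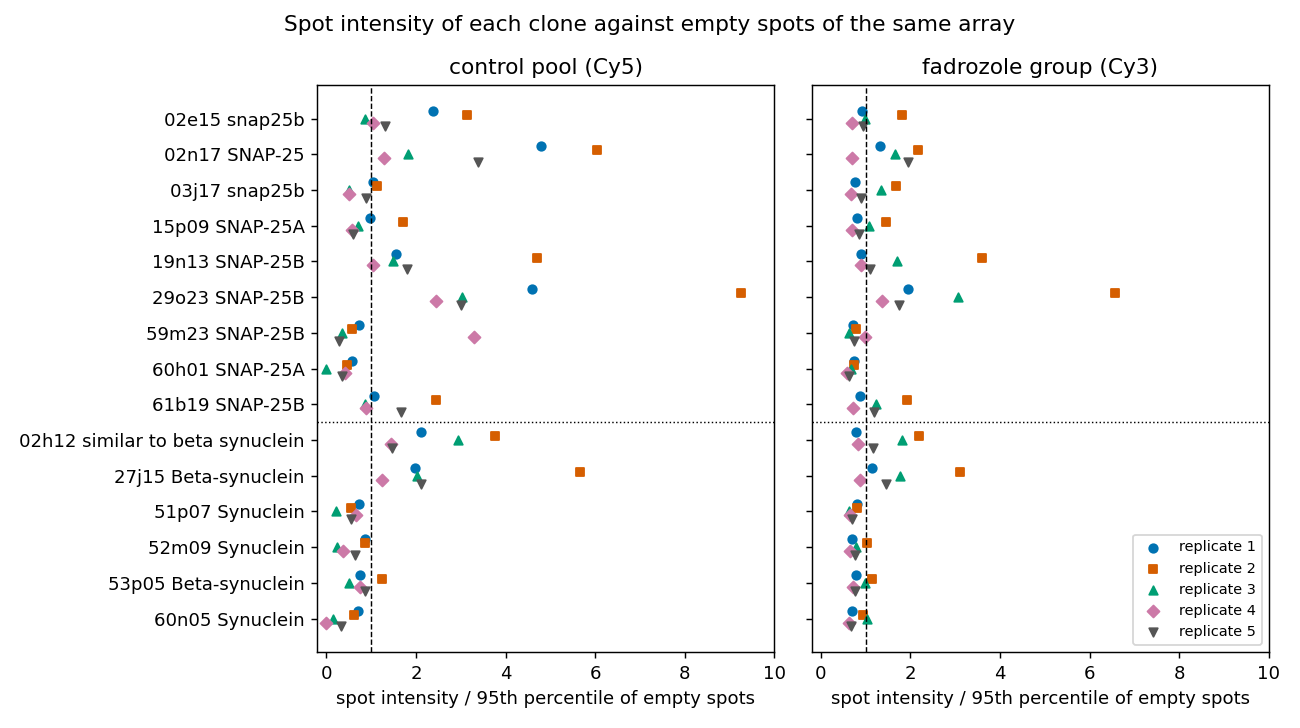
Intensity of each clone, as the mean of its 2 spots divided by the 95th percentile of the empty spots on the same array (x axis, linear), in the control channel (left) and the fadrozole channel (right). Each symbol is 1 array and the dashed line marks the level of the empty spots. SNAP-25 clone 29o23 lies to the right of the line on all 5 arrays in both channels, while SNAP-25A clone 60h01 lies to the left of it on all 5.

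Set against the other clones of its own source plate, 02e15 was unremarkable, being 144th from the lowest of 384. Its ratio minus the plate's median on each array was -0.14, -0.10, 0.02, -0.06 and -0.09, a mean of -0.07 ± 0.06. The other called clones of plate 02 were nearer its low end, 02n17 at rank 34 with -0.29 ± 0.31 relative to the plate and 02h12 at rank 29 with -0.31 ± 0.27. Both were below the plate's median on all 5 arrays, 02n17 by 0.04 to 0.79 and 02h12 by 0.01 to 0.62.

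The 11 other plates that hold tested clones of the families had medians between -0.04 and 0.03. On them, 59m23 was the lowest of 382 clones and 27j15 the 5th lowest of 171. Relative to its plate, 27j15 stood at -0.33 ± 0.27, about as low as 02n17 and 02h12 stood relative to theirs. The brightest SNAP-25 clone, 29o23, ranked 9th of 66 with -0.15 ± 0.16 relative to its plate, and 19n13 ranked 27th of 237. At the other end, 03j17 and 60h01 lay slightly above their plates' medians, at ranks 215 of 384 and 212 of 378.

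Averaged over clones, the SNAP-25 family stood at -0.14 ± 0.07 relative to the plates and the synuclein family at -0.19 ± 0.08, each below 0 on all 5 arrays. With plate 02 left out, the 7 SNAP-25 clones had a mean of -0.12 ± 0.07, and of -0.07 ± 0.05 without 59m23 as well. The 4 synuclein clones elsewhere had a mean of -0.15 ± 0.09, and of -0.09 ± 0.10 without 27j15. The clones of plate 02 were lower than their family elsewhere on 5 of 5 arrays, by 0.13 to 0.78 for SNAP-25 and by 0.13 to 0.99 for synuclein. When each plate was centered on its own median, limma called 0 of all 8078 clones, with 910 (11.3%) at an unadjusted p under 0.05. What lowers plate 02 was not tested.

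**Figure D3:**
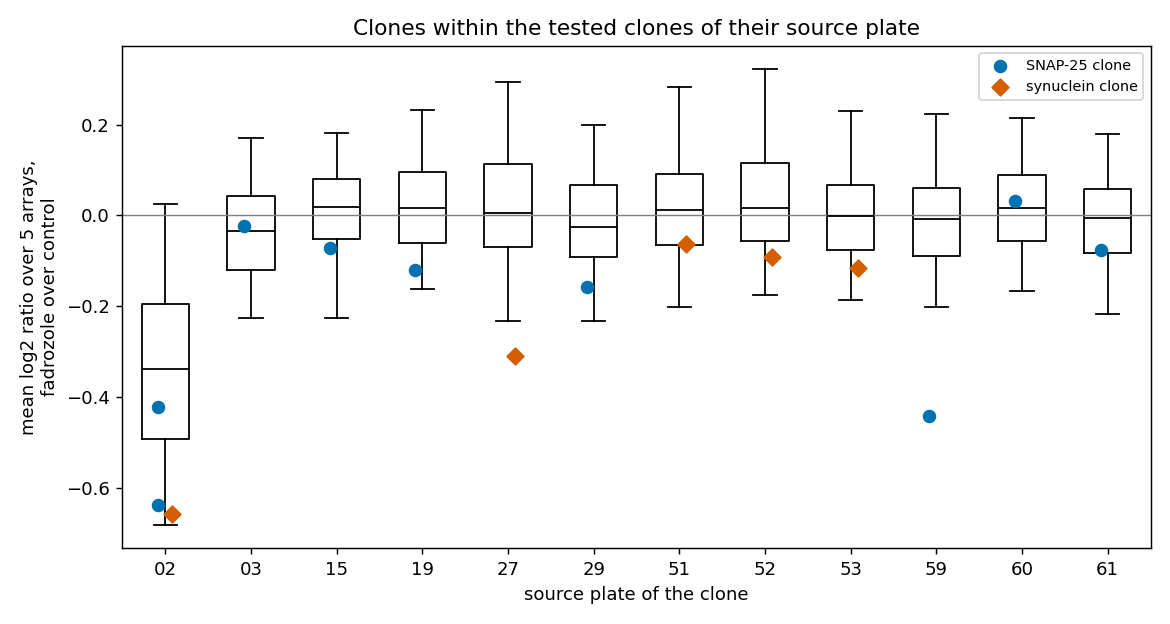
Mean log2 ratio of fadrozole over control across 5 arrays (y axis) of the tested clones by source plate (x axis). Boxes span the interquartile range with the median as a line, whiskers run from the 5th to the 95th percentile, and points are SNAP-25 (circles) and synuclein (diamonds) clones. Plate 02 lies below the other plates shown as a whole, and the only points beyond the whisker of their plate are 59m23 and 27j15.

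Plate 02 filled most of printed row 18 of the blocks, which it shares with clones of plate 03. In that row the 312 clones of plate 02 had a median ratio of -0.37 ± 0.14 and the 144 clones of plate 03 one of -0.04 ± 0.05. Within plate 02 the rows differed too, since its 72 clones in row 19 had a median of -0.22 ± 0.15. Clones 02e15, 02n17 and 02h12 were printed in row 18, and 03j17 in row 17, where the clones of plate 03 had a median of -0.05.

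The left spot was lower than the right one in 13 of the 15 clones, with a median difference of -0.10, against 55.7% of all tested clones with a median difference of -0.03. The median absolute difference between the 2 spots of a clone on 1 array was 0.21 for SNAP-25 and 0.20 for synuclein, close to the 0.24 of all tested clones. With left spots alone the family means were -0.26 and -0.33, and with right spots alone -0.17 in both families. In either case limma called 0 clones of the families.

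Of the other proteins of vesicle docking and fusion, 31 clones were found by name, among them syntaxins, VAMPs, synaptotagmins, complexin, Unc-18 and Munc13 proteins and the vesicle protein SV2. The word search also took in Rab-35, which is not a Rab3 protein. Through words in their longer names it took in Sec1 family domain containing protein 1 (29b07) and the VAT-1 homolog (60d11). Their means were -0.008 and -0.0005. limma called 0 of the 30 tested, with 1 (Rab-3A) lower and 1 (syntaxin-4) higher at an unadjusted p under 0.05, where over all tested clones 2.03% were called and 14.3% had such a p. Their median ratio was 0.004 and 15 of 30 were below 0, against 51.0% of all tested clones (4122 of 8078, 51%). None of them came from plate 02 or 04. On plates other than these, limma called 3 lower and 33 higher of 7310 clones, and 46.9% had a mean below 0.

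Rab-3A (22d24), a small GTPase of synaptic vesicles, had ratios of -0.04, -0.40, -0.32, -0.07 and -0.31, a mean of -0.23 ± 0.16 with an adjusted p of 0.243 in limma. Syntaxin-4 (21d01), a SNARE of the plasma membrane best known outside neurons, had a mean of 0.24 ± 0.26 with an adjusted p of 0.320. SNAP-25's own partners in the complex were not called: the 2 syntaxin-1B clones stood at -0.11 ± 0.15 (54f16) and 0.06 ± 0.26 (60e16). The 2 VAMP-2 clones stood at -0.18 ± 0.24 (53p12) and 0.04 ± 0.10 (51h21), and the synaptobrevin clone at 0.11 ± 0.45 (61i10). Within each pair the clones had means of opposite sign, and each of these 5 clones had arrays on both sides of 0.

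Of 13 clones of genes linked to synuclein or to Parkinson disease, limma called 1, a clone of uchL1 (02i06), lower, where it called 1.61% of all tested clones and 24.5% of those on plate 02 lower. uchL1 is a ubiquitin hydrolase abundant in neurons. The 02i06 ratios were -0.99, -0.95, -0.77, -0.19 and -0.58, a mean of -0.69 ± 0.33 with an adjusted p of 0.0241 in limma. Its fadrozole channel stood above local background on only 2 arrays. Without replicate 1, 2 or 3 limma called 0 clones of this list, and without replicate 4 it called 2. The clone too comes from plate 02. The other uchL1 clones of that plate stood at -0.28 ± 0.37 (02o10) and -0.14 ± 0.11 (02j24), and 2 clones from elsewhere at -0.02 ± 0.43 (03g06) and 0.05 ± 0.20 (CA-54, spelled uch-L1 and outside the list).

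The next by p were 2 clones of DJ-1, a protein that protects cells from oxidative stress and is mutated in a form of inherited Parkinson disease in humans. Clone 28b02 had ratios of 0.08, 0.30, 0.23, 0.19 and 0.76, a mean of 0.31 ± 0.26 with an adjusted p of 0.195 in limma. Clone 35i08 had a mean of 0.33 ± 0.30 with an adjusted p of 0.200. Another DJ-1 clone, CA-56, stood at -0.03 ± 0.12, and PINK1 (CA-55), a mitochondrial kinase, at -0.06 ± 0.16. The median of all 13 clones was -0.05, and the 10 outside plate 02 had a mean of 0.03 ± 0.08. Both values include clones of the heat shock protein HSC70. They also include clones of Hsc70-interacting protein, which the word search took in only through the word hsc70.

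Among 3801 described clones outside both families, likeness was measured as the root mean square difference of log2 ratios from the family mean over the 5 arrays. The clones nearest to the SNAP-25 mean were a hypothetical protein (52j15) at 0.05, cytochrome c oxidase subunit III (03p05) at 0.05 and a tubulin alpha chain (39h05) at 0.06. Nearest to the synuclein mean were HMG-4 (27n03) and the same tubulin clone, both at 0.08, and alpha enolase (14m15) at 0.09. The tubulin clone had ratios of -0.24, -0.17, -0.26, -0.28 and -0.24.

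**Figure D4:**
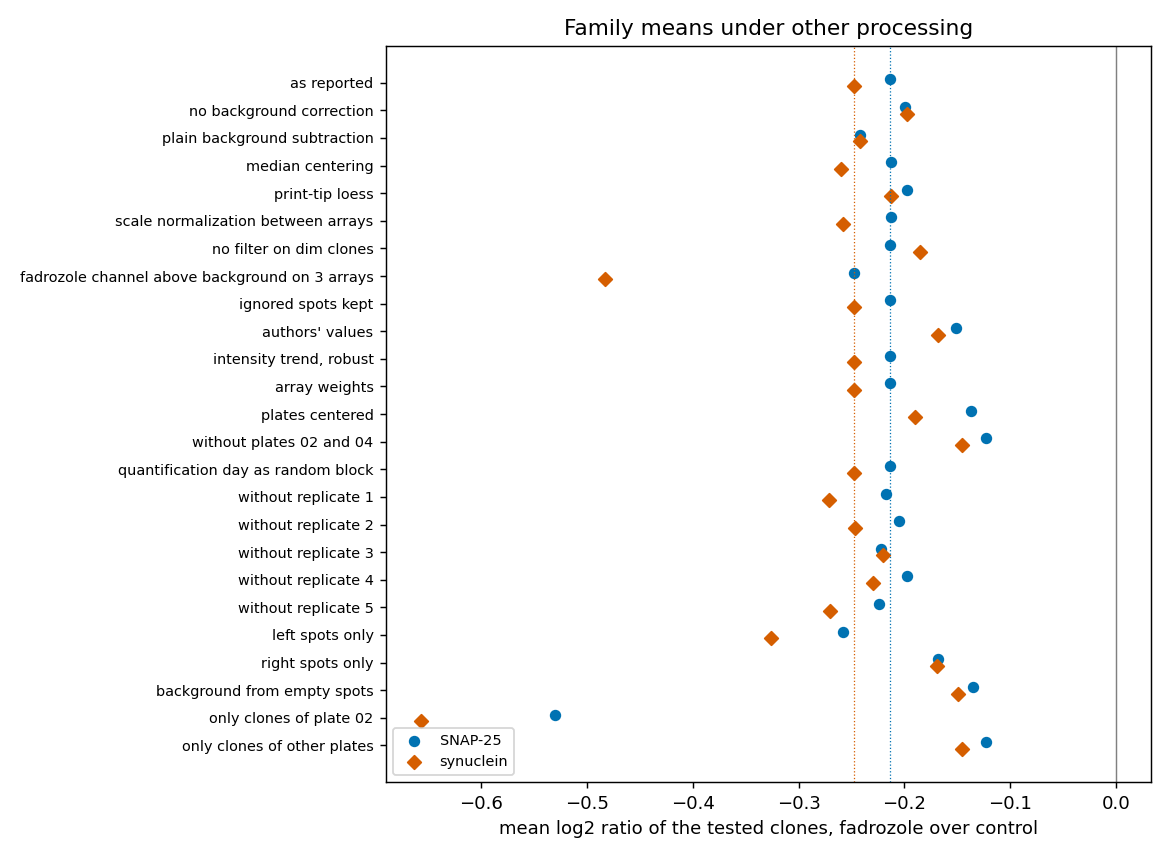
Mean log2 ratio of fadrozole over control of the tested SNAP-25 (circles) and synuclein (diamonds) clones (x axis) as reported and under each of 24 other ways of processing the data or choosing clones and arrays (y axis). Dotted lines mark the reported means, and both families lie below 0 in all 24. The points of the variance models fall on the dotted lines because the family means do not use those models. The lowest points, -0.53 and -0.66, are the clones of plate 02 alone.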

How the data were processed

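The deposited scanner reports give, per the file headers, 1 intensity and 1 local background for each spot and channel on a linear scale, with no background subtracted. A second deposited table holds the authors' processed values, treated as log2 ratios although their log base and scale are not stated. Set in print order against log2 ratios from the scanner values, they correlated across spots at -1.00 to -0.996 with slopes of -0.73 to -0.81, so they run as control over fadrozole and were used, with the sign reversed, as an alternative. Their column medians ran from -0.04 to 0.04. No aligner, genome or sequence was used.

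Background was corrected by normexp with an offset of 50, each array was normalized by loess (span 0.3), and duplicate spots were averaged, with weight 0 for spots that the scanner software ignored (0 to 29 per array). A tested clone had, on 3 or more arrays, a channel in which 0.5 or more of its usable spots lay over 2 background SDs above the local background. The mean ratio was tested against 0 with limma 3.58.1 (R 4.3.3), two-sided, with Benjamini-Hochberg adjustment over 8078 clones and 4 residual and 5.24 prior degrees of freedom. Separate groups of fish are the replicates.

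The members and lists were chosen with earlier results of these data known. In full, the text gives called clones, and the lowest ratio and the brightest control channel of each family. The highest ratio and the dimmest control channel are given in full for SNAP-25 and only in brief for synuclein. Of the 2 other lists it takes called clones and those of smallest p, and for likeness the 3 nearest clones. SNAP-25's partners, the other uchL1, DJ-1 and PINK1 clones and 59m23 were added after their values were seen. Alternatives were other background corrections, normalizations, filters and variance models, the authors' values, plates centered or left out, and arrays left out. Single spots and a background from empty spots were added after seeing the data. The procedure was tested on simulated data. In these no plate was shifted, and empty spots lay near their local background in both channels. The simulation therefore does not bear on plate 02 or on the high fadrozole signal of empty spots.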

Additional observations from a re-analysis of the deposited data

Results flagged for a closer look

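In 2 of the 19 sets of 5 array values examined (the 15 clones, and the mean of each family over all plates and outside plate 02), 1 array stood far from the other 4, by Dixon's gap test. Over single clones of the whole array this occurred in 703 of 8077 (8.70%). In SNAP-25B clone 59m23, replicate 4 was at -1.58 and the other arrays between -0.25 and -0.01. In SNAP-25B clone 61b19, replicate 1 was at 0.21 and the other arrays between -0.17 and -0.12. The cause of either was not tested.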

How the results depend on the processing

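The tests rest on 5 arrays and a dim fadrozole channel, and the calls depend on the processing. The family means lay below 0 in all 24 alternatives, but the families were proposed from low ratios in this same comparison. The variance models among the alternatives enter only the tests and leave the family means as they were. With no background correction, plain subtraction, the authors' values, plates centered, without plates 02 and 04, right spots only, or a background from empty spots, limma called 0 of all clones, hence 0 SNAP-25, 0 synuclein and 0 synuclein handling clones. With left spots only it called 38 of all clones and 0 in each of these groups. Scale normalization gave 93 in all, with 1 SNAP-25 and 0 synuclein clones. Median centering and print-tip loess gave 1 SNAP-25 clone each. The filter for a fadrozole channel above background on 3 arrays gave 343 in all and 0 synuclein handling clones. Clone 02i06 did not pass this filter and so was not tested under it. Leaving out each replicate gave 0 to 174 in all, 0 to 1 SNAP-25, 0 to 1 synuclein and 0 to 2 synuclein handling clones. The vesicle fusion list had 0 calls in all 22 of its alternatives. Where limma called 0 of all clones, that count could not differ from 0. The list also holds no clone of plates 02 and 04, where most calls of the main fit lay. The SNAP-25 mean was -0.15 with the authors' values, whose log base and scale are not stated, so its size is not directly comparable. It was -0.14 with plates centered and -0.12 without plates 02 and 04 (also the value for clones of plates other than 02). With background from empty spots it was -0.14, and for plate 02 alone -0.53. The synuclein mean was -0.48 under the fadrozole filter, -0.15 without plates 02 and 04 (as for plates other than 02), -0.15 with background from empty spots and -0.66 for plate 02 alone. Leaving out each replicate moved the SNAP-25 mean between -0.22 and -0.20 and the synuclein mean between -0.27 and -0.22. The calls of 02e15, 02n17 and 02h12 were lost in 13, 12 and 12 of 21 alternatives, with adjusted p in limma up to 0.773, 0.687 and 0.687 and no change of sign. Their size changed too: with background from empty spots their ratios were -0.17, -0.43 and -0.32, against -0.42, -0.64 and -0.66 as reported. The uncalled 03j17 changed sign in 8, 60h01 in 4 and 52m09 in 2. The causes were not tested. Each ratio set the 2 channels of 1 array against each other. Beyond that, fadrozole groups could not be paired with control samples of their own, because 1 control pool served all arrays. The labels also give no shared replicate numbers.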
